A study of Homo sapiens with 2 samples.

Results

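Protein synthesis runs through initiation, elongation and termination factors, with tRNAs that aminoacyl-tRNA synthetases have charged with their amino acids. EIF5A, which helps the ribosome past stretches such as consecutive prolines, carries hypusine, a modified lysine made from the polyamine spermidine by DHPS and then DOHH. EIF5A2 is its close paralog, with low levels in most adult tissues and known for high levels in several cancers. The genes described here are the translation factors and cytosolic tRNA synthetases, matched by a rule on gene symbols: initiation (EIF), elongation (EEF) and termination factors, poly(A)-binding proteins, synthetases, the synthetase scaffold AIMP genes, DHPS and DOHH, leaving out EIF2C symbols and EIF2AK2. The rule was set with earlier results of these data known. The rule matched 60 probe sets of 58 genes, among 13864 genes with a name on the array. Of the 23641 probe sets with values, 9553 had no gene name in the annotation used and were left out. A gene said below to have no named probe set may therefore still be on the array, and the members are not the whole family.

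The samples are 2 cultures of PC3, an established human prostate cancer cell line that grows without androgen, 1 stably overexpressing a control microRNA and the other stably overexpressing miR-95. Both grew in the same serum-containing medium, and total RNA was hybridised to an Affymetrix gene array, 1 array per group. The labels do not say whether each line was a clone or a pool, or which vector drove the microRNA. With 1 array per group no difference has a replicate error or a test, so every statement describes these 2 arrays and any difference between the cultures cannot be told apart from miR-95.

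The microRNA itself is printed here because its seed (bases 2 to 8, in capitals) is what a miRNA pairs with its targets. The labels do not say which arm was meant, so both mature arms of MIR95 are given from RefSeq, GRCh38.p14, minus strand.
hsa-miR-95-3p (chr4:8005312-8005333): uUCAACGGguauuuauugagca
hsa-miR-95-5p (chr4:8005347-8005367): uCAAUAAAugucuguugaauu
The seeds of the arms differ. Sites for them in the transcripts below were not searched, and miR-95 was not measured here.

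Values are log2 expression per probe set, given as deposited. To compare the arrays, the median over all named genes was subtracted from each (7.46 for the control and 7.495 for miR-95), so that a difference below is the miR-95 value less the control value, less a further 0.035, in log2 units. Adding 0.035 back gives the difference as deposited, so the sign of a difference within 0.035 of 0 depends on this step. A gene counted as detected when at least 1 array read at or above its own median, which kept 7081 genes. Of the 58 members 49 were detected and 9 were not. As a guide to measurement disagreement, probe sets of the same gene gave differences with a spread of 0.151 (root mean square gap between the most distant probe sets of each of 68 detected genes that have several, divided by the square root of 2). This spread holds no variation between cultures. Of the epithelial markers KRT8, KRT18, KRT19 and EPCAM, 4 of 4 measured were detected, while KLK3 and KLK2 of prostate luminal cells, CD14 of leukocytes, VWF of endothelium and DCN and LUM of fibroblasts were below the detection rule on both arrays. LUM nevertheless read 7.33 on the control array, just under its median, and 6.04 on the miR-95 array (difference -1.325), and DCN read 2.90 and 2.76 (-0.175). Their part in the results below was not tested.

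EIF5A2 was the 1 member that stood far from the others. It read 10.68 on the control array and 9.72 on the miR-95 array, 1.99-fold lower after centring (difference -0.995). Among all 7081 detected genes 2 had a difference this low, EIF5A2 and 1 gene tied with it. The next lowest members, GARS1 and RARS1, were at -0.275, and the highest detected member, EIF4E2, was at 0.215. The other 48 detected members thus spanned 0.49 in all, and EIF5A2 lay 0.72 below the lowest of them.

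**Figure D1:**
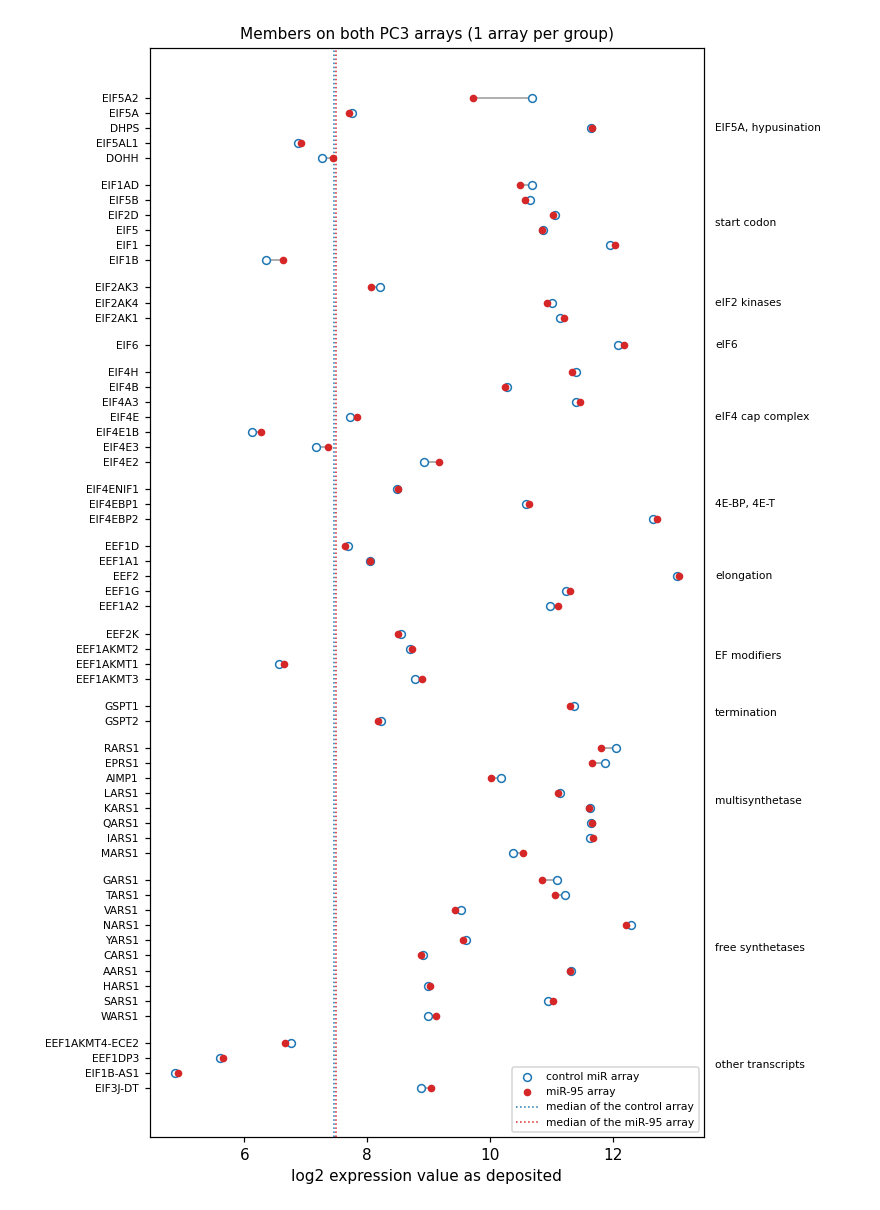
Log2 values as deposited for each of the 58 members on the control array (open circles) and the miR-95 array (filled circles), ordered by role, with dotted lines at the array medians (7.46 and 7.495). The circles of EIF5A2 (10.68 and 9.72) are far apart, while those of every other member lie within 0.28 of each other (EIF1B). Positions of different genes show no order of abundance, since each comes from other probes.

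The paralog and the modifying enzymes did not show a difference of that size. EIF5A read 7.75 on the control and 7.71 on the miR-95 array, a difference of -0.075, which lies inside the 0.151 spread between probe sets. Unlike those of EIF5A2, these values lay near the array medians (7.46 and 7.495). Whether a probe set this dim could show a large difference was not tested. DHPS, which transfers the aminobutyl group of spermidine to the EIF5A lysine, read 11.64 and 11.65 (-0.025). DOHH, which then hydroxylates it, read 7.27 and 7.44 (0.135), below the median of both arrays and so not detected. The differences of EIF5A2 and EIF5A were 0.92 apart on the log2 scale, and those of EIF5A2 and DOHH were 1.13 apart. The 0.151 spread is a guide for the difference of a single gene, and a gap between genes has a wider one.

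EIF5AL1, an EIF5A-like gene whose sequence is close to that of EIF5A, was not detected either (6.87 and 6.93, difference 0.025). Probes for EIF5A and EIF5AL1 could share signal, so their values are not separate readings with certainty. Each of these 5 genes was read by 1 probe set, and the value of EIF5A2 therefore rests on 1 probe set on each of 2 arrays. Under 10 other ways of centring, filtering and combining probe sets it stayed between -0.995 and -0.952. The detection settings could not change it, and with 1 probe set the choice of probe set could act only through the array medians. Under the other centrings it lay between -0.97 and -0.952.

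The measured genes next to EIF5A2 on chromosome 3 differed in both directions. Of the 20 nearest in gene order, 10 on each side, 8 were detected, with 6 negative and a median difference of -0.045. TNIK, a kinase and the next measured gene on one side, read 8.02 and 7.64 (-0.415). RPL22L1, a ribosomal protein paralog and the next on the other side, read 8.32 and 8.23 (-0.125). FNDC3B, a membrane protein, had the highest difference of the 8 at 0.335, and SEC62, of protein import into the endoplasmic reticulum, was at 0.235. The lowest of the 8, TNIK, was thus 0.58 above EIF5A2.

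**Figure D2:**
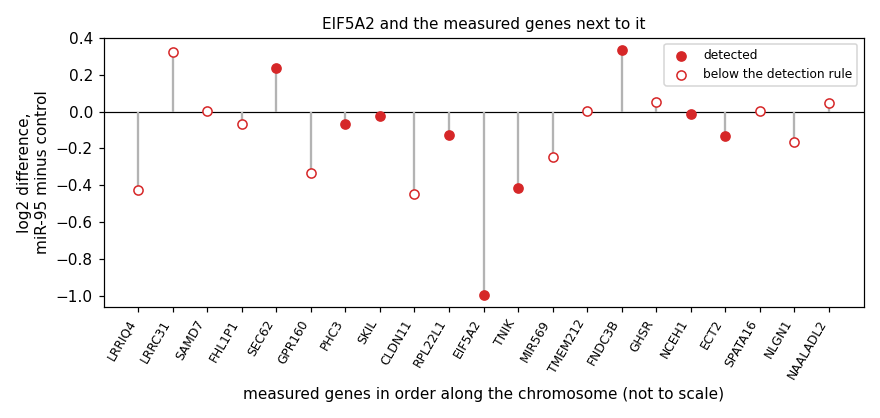
Log2 difference (miR-95 minus control, after centring) of EIF5A2 and of the 10 nearest measured genes on each side, in gene order and not to scale. Filled circles are detected genes and open circles genes below the detection rule. EIF5A2 is at -0.995, and the 8 detected neighbours lie between -0.415 (TNIK) and 0.335 (FNDC3B).

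Across all detected members, 1 of 49 was lower by 1.5-fold or more in the miR-95 culture (EIF5A2), against 0.861% of all detected genes. At least 1.5-fold higher were 0 of 49, against 0.395% of all detected genes. At 1.2-fold, 3 members were lower (EIF5A2, GARS1 and RARS1; 6.12% of the members, against 8.45% of all detected genes) and 0 were higher, against 5.48%. The share past 1.2-fold was thus no larger among the members than in the background. GARS1 and RARS1 lay just past this limit (1.21-fold each), and with the values as deposited, after loess, after quantile normalization or with the median over all probe sets EIF5A2 was the 1 member past it.

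The members' median difference was -0.055, beside -0.035 for all detected genes, and -0.05 without EIF5A2. Of the 49 members 33 had a negative and 16 a positive difference (67.3% negative, against 59.4% of all detected genes). These sign counts move with the centring: with the values as deposited 27 of 49 members were negative (55.1%, against 48.0% of all detected genes), and 27 of 49 after loess (against 50.4%). Most members differed little, with 40 of 49 (81.6%) inside the 0.151 spread between probe sets, compared with 65.5% of all detected genes.

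**Figure D3:**
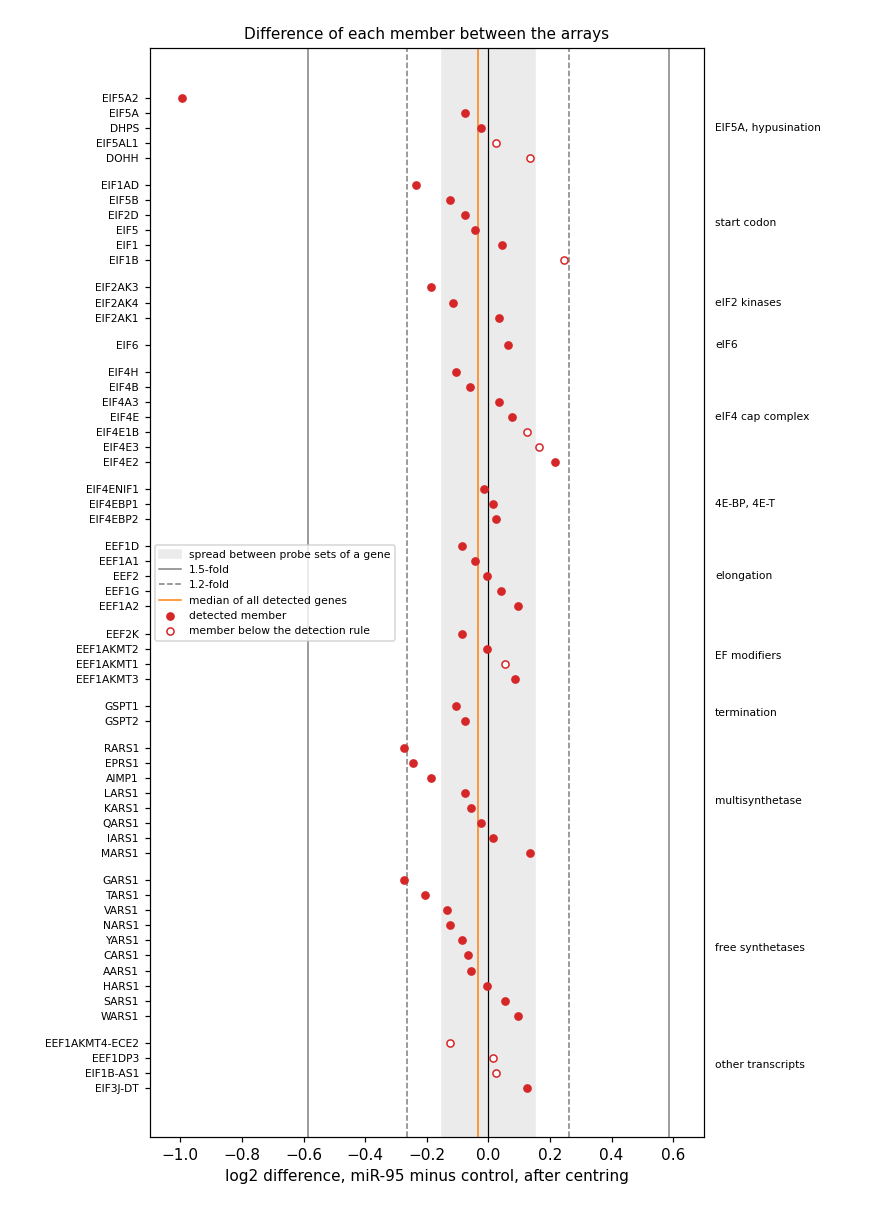
Log2 difference (miR-95 minus control, after centring) for each member by role. Filled circles are detected members, open circles members below the detection rule, grey shading the 0.151 spread between probe sets of a gene, and lines 1.2-fold, 1.5-fold and the median of all detected genes (-0.035). EIF5A2 at -0.995 is beyond the 1.5-fold line, and GARS1 and RARS1 at -0.275 lie just past the 1.2-fold line.

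**Figure D4:**
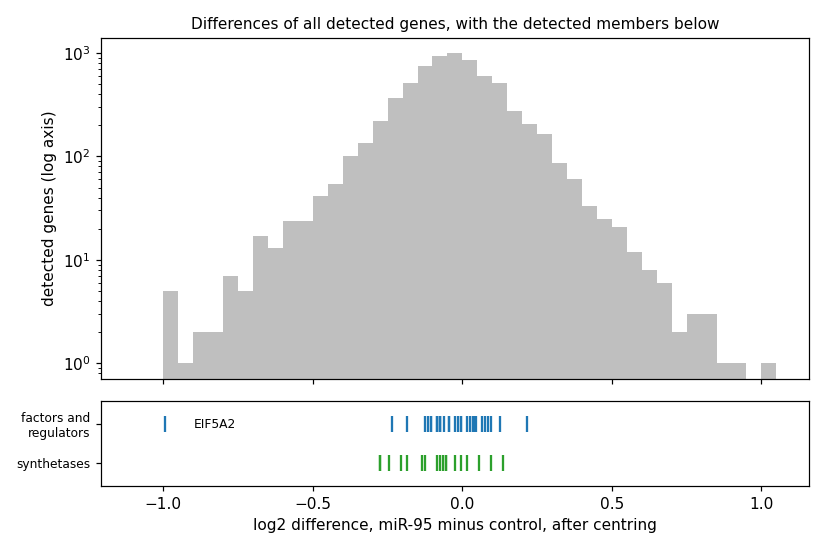
Histogram of the differences of all 7081 detected genes (log count axis), with a tick below for each of the 31 detected factors and regulators and each of the 18 synthetases and complex proteins. EIF5A2 at -0.995 lies at the low end of all detected genes, while the other members lie between -0.275 and 0.215.

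In the group for start codon choice and initiator tRNA delivery, 5 of 6 measured members were detected, with 4 negative and a median of -0.075. In this group 0 were past 1.2-fold, against 8.45% of all detected genes lower and 5.48% higher. EIF1AD, which matched by symbol and has an EIF1A-like domain, was the lowest (10.68 and 10.48, difference -0.235). Its part in start codon choice was not tested. EIF5B, the GTPase that joins the ribosomal subunits, was at -0.125 (10.65 and 10.56). EIF5, which activates the GTPase of eIF2 and is no relative of EIF5A, read 10.86 and 10.85 (-0.045). EIF2D, which can deliver tRNA to the ribosome outside the usual route, was at -0.075. EIF1, which guards start codon choice, was at 0.045 (11.95 and 12.03). Its paralog EIF1B read higher on the miR-95 array by 0.245, but at 6.35 and 6.63 it was below the median of both arrays. No probe set used here named a subunit of eIF2 itself, of its exchange factor eIF2B, or of the core of eIF3.

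The eIF2 kinases slow initiation under stress by phosphorylating eIF2. EIF2AK3 (PERK), the kinase of the endoplasmic reticulum, read 8.21 and 8.06 (-0.185). EIF2AK4 (GCN2), which senses uncharged tRNA, read 11.01 and 10.93 (-0.115), and EIF2AK1 (HRI), the haem-regulated kinase, read 11.13 and 11.20 (0.035). The 3 kinases did not share a direction, and only EIF2AK3 lay outside the spread between probe sets, which it did not with the values as deposited (-0.15).

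The eIF4 group, of cap-binding proteins and the helicase-related EIF4A3, EIF4B and EIF4H, had 5 of 7 measured members detected. The 2 negative members were EIF4H and EIF4B, and the median of 0.035 was the value of EIF4A3. Past 1.2-fold were 0 of the detected members, against 8.45% of all detected genes lower and 5.48% higher. EIF4E2, a cap-binding protein that represses translation together with GIGYF2, read 8.92 and 9.17 and had the largest positive difference of the detected members (0.215, 1.16-fold higher). EIF4E, the cap-binding subunit of eIF4F, read 7.72 and 7.83 (0.075). The further relatives EIF4E3 (7.16 and 7.36, 0.165) and EIF4E1B (6.12 and 6.28, 0.125) were below the median of both arrays. The 4 differences were thus between 0.075 and 0.215, and 0 of them passed 1.2-fold. EIF4E2 and EIF4E3 lay outside the spread between probe sets, EIF4E3 only narrowly (0.132 at its lowest setting, inside it).

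The helicase partners were close to equal. EIF4H, which stimulates the helicase EIF4A, was at -0.105, and EIF4A3, of the exon junction complex, was at 0.035. EIF4B, which also stimulates EIF4A, had a pair of probe sets that gave differences of -0.085 (8.80 and 8.75) and -0.035 (11.74 on both arrays), 0.05 apart. The inhibitors of EIF4E differed even less. EIF4EBP1 read 10.58 and 10.63 (0.015), EIF4EBP2 read 12.65 and 12.71 (0.025), and EIF4ENIF1, which carries EIF4E into the nucleus and acts in mRNA decay, was at -0.015. EIF6, which keeps the ribosomal subunits apart, was at 0.065. No probe set used here named a poly(A)-binding protein, EIF4A1, EIF4A2 or an EIF4G gene.

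Elongation factors differed little, with 5 of 5 measured members detected, a median of -0.005 and a range from -0.085 to 0.095. EEF1A1, which delivers charged tRNA to the ribosome, read 8.05 and 8.04 (-0.045). Its paralog EEF1A2 read 10.97 and 11.10 (0.095), 0.14 from EEF1A1 and inside the spread between probe sets. EEF2, the translocase, read 13.04 and 13.07 (-0.005). Of the exchange factor subunits, EEF1D read 7.69 and 7.64 (-0.085) and EEF1G had probe sets at 0.015 and 0.065. EEF1A1 has many processed copies in the genome, so its signal may not be its own alone. EEF2K, the kinase that inhibits EEF2, was at -0.085, and the lysine methyltransferases of EEF1A, EEF1AKMT2 and EEF1AKMT3, were at -0.005 and 0.085. EEF1AKMT1 was below the detection rule (6.56 and 6.65).

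The release factor GTPases that act at the stop codon were read for both paralogs. GSPT1 read 11.37 and 11.30 (-0.105) and GSPT2 read 8.22 and 8.18 (-0.075), 0.03 apart. No probe set used here named ETF1, ABCE1 or an ABCF gene.

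The cytosolic synthetases charge each tRNA with its amino acid. Of 18 measured synthetases and complex proteins all 18 were detected, 14 with a negative and 4 with a positive difference (77.8% negative, against 59.4% of all detected genes), and the median was -0.07, against -0.035 for all detected genes. With the values as deposited 12 of 18 were negative (66.7%, against 48.0%) and the median was -0.035, against 0. Of the 18, 2 were at least 1.2-fold lower (against 8.45% of all detected genes) and 0 at least 1.2-fold higher (against 5.48%). Past 1.5-fold were 0, against 0.861% of all detected genes lower and 0.395% higher. The other 31 detected members had a median of -0.025 with 19 negative. With 1 array per group the difference between these medians has no test.

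Several synthetases work in a large complex held together by the AIMP scaffold proteins. Of its 8 measured members 6 were negative (median -0.065). RARS1, the arginine enzyme, read 12.05 and 11.81 (-0.275, 1.21-fold lower). EPRS1, a fused enzyme for glutamate and proline, read 11.87 and 11.66 (-0.245, 1.19-fold lower), and the scaffold AIMP1 read 10.17 and 10.02 (-0.185). These 3 were the members of the complex outside the spread between probe sets, although with the values as deposited AIMP1 (-0.15) lay inside it and MARS1 (0.17) outside. The leucine enzyme LARS1 was at -0.075, the lysine enzyme KARS1 at -0.055, the glutamine enzyme QARS1 at -0.025 and the isoleucine enzyme IARS1 at 0.015. MARS1, the methionine enzyme, was the highest (10.37 and 10.54, 0.135). Differences within the complex thus covered nearly the whole range of the detected members other than EIF5A2.

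Of the synthetases outside the complex 8 of 10 were negative, with a median of -0.075. GARS1, the glycine enzyme, read 11.09 and 10.85 (-0.275, 1.21-fold lower), and TARS1, the threonine enzyme, read 11.22 and 11.05 (-0.205, 1.15-fold lower). VARS1 for valine (-0.135), NARS1 for asparagine (-0.125), YARS1 for tyrosine (-0.085), CARS1 for cysteine (-0.065) and AARS1 for alanine (-0.055) were negative inside the spread between probe sets, and HARS1 for histidine was at -0.005. SARS1 for serine (10.94 and 11.03, 0.055) and WARS1 for tryptophan (8.99 and 9.12, 0.095) were positive. WARS1 is known to be induced by interferon. GARS1 and KARS1 encode both the cytosolic and the mitochondrial enzyme.

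Many synthetase genes are known targets of ATF4, the transcription factor of the integrated stress response, which binds with C/EBP partners at an element of the form TGATGNAA. This motif was searched on both strands (its other strand reads TTNCATCA) in RefSeq promoter windows of GRCh38.p14 that run from 250 bases before to 50 bases after each transcription start. Windows were given for 15 of the 18 synthetase and complex genes, and 7 of the 15 genes (46.7%) held the motif, against 4.46% of 27305 genes with a window and 1 of the 33 other members with a window. The matches are printed in the direction of each gene, with the motif in capitals, to show the letters of the element in each gene. The printed stretches of CARS1, IARS1, MARS1, NARS1 and TARS1 run into the transcribed part. The motif itself lies past the start of the window's transcript in NARS1 and TARS1, and spans that start in CARS1 and MARS1.
AARS1 (chr16:70289678-70289701, minus strand): tctcgcagTTGCATCAgccaagtt
CARS1 (chr11:3057410-3057433, minus strand): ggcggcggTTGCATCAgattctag
GARS1 (chr7:30594837-30594860, plus strand): cgcggcgaTTTCATCAtgctccga
IARS1 (chr9:92293695-92293718, minus strand): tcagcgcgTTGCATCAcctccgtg
MARS1 (chr12:57488056-57488079, plus strand): ggttccggTTGCATCAgcgaggga
NARS1 (chr18:57621807-57621830, minus strand): acgctctcTGATGCAAcgccggaa
TARS1 (chr5:33440959-33440982, plus strand): cctttcgaTTGCATCAgctggtcc
The 7 genes with the motif ran from -0.275 (GARS1) to 0.135 (MARS1), with a median of -0.065 and 5 negative. The 8 without it ran from -0.275 (RARS1) to 0.095 (WARS1), with a median of -0.04 and 6 negative. The ranges of these sets overlap almost fully. A match is a description of the letters and not of binding, and whether ATF4 acted on these genes was not tested.

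The E-box CACGTG, which MYC and related factors bind and which reads the same on both strands, was also searched. It occurred in the windows of 11 of 48 members with a window (22.9%), against 8.77% of genes with a window. Among the synthetases and complex proteins 1 of 15 held it (6.67%), and among the other members 10 of 33 (30.3%). The 11 include EIF1B-AS1 and EEF1AKMT4-ECE2, which are not translation proteins of their own. The windows of EIF5A2 held it at 2 places, printed here because EIF5A2 has the largest difference (minus strand, motif in capitals).
EIF5A2 (chr3:170908811-170908832): atccgcagCACGTGgggttgcc
EIF5A2 (chr3:170908786-170908807): gcgctcttCACGTGactgggcg
EIF4E (difference 0.075) and the undetected EEF1AKMT4-ECE2 (-0.125) held it at 2 places too. Of the other detected members with it, EIF4H (-0.105), EEF2K (-0.085) and EIF4B (-0.06) were negative, and EIF4A3 (0.035) and IARS1 (0.015) positive. DOHH (0.135), EIF1B (0.245) and EIF1B-AS1 (0.025), which held it as well, were not detected. EIF1B and EIF1B-AS1 hold the same site, read from opposite strands, so they are not separate matches.

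Further transcripts matched the symbol rule without being translation proteins of their own. EIF3J-DT, a long noncoding RNA transcribed away from the EIF3J promoter, was detected (8.88 and 9.04, 0.125). EIF1B-AS1, an antisense RNA, the pseudogene EEF1DP3 and the readthrough transcript EEF1AKMT4-ECE2 were below the detection rule. Without these transcripts the 48 detected members had a median of -0.055.

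Related genes were read from lists. Polyamines supply the spermidine for hypusine, and 13 of 15 measured genes of their synthesis and turnover were detected, with 7 negative, 6 positive and a median of -0.005. OAZ2, an antizyme that inhibits and degrades ornithine decarboxylase, read 8.62 on the control array and was 1.57-fold lower on the other (-0.655). It was the 1 gene of the list past 1.2-fold, against 8.45% of all detected genes lower and 5.48% higher. SMS, the spermine synthase, was at -0.215 and AMD1, which supplies the aminopropyl donor, at -0.145. SRM, which makes spermidine, read 12.83 and 13.04 (0.175), and ODC1, the ornithine decarboxylase that starts the pathway, read 13.13 and 13.27 (0.105).

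Of the TOR pathway and cap regulators 13 of 13 measured were detected, with 8 negative and a median of -0.055. PAIP2B, an inhibitor of poly(A)-binding proteins, read 8.84 and 8.42 (-0.455, 1.37-fold lower), and its paralog PAIP2 was at -0.165. MKNK1, a kinase of EIF4E, read 7.67 and 7.46 (-0.245) and was detected only through the control array. With both arrays required to be at or above their medians the list median was -0.04. GIGYF2, the partner of EIF4E2, was at -0.175. AKT1S1, a TORC1 inhibitor, read 10.25 and 10.55 (0.265, just past 1.2-fold), and PDCD4, an inhibitor of EIF4A, was at 0.245. MTOR itself was at 0.085.

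In the integrated stress response list 14 of 16 measured genes were detected, with 5 negative (35.7%, against 59.4% of all detected genes), 9 positive and a median of 0.02. SESN2 (8.46 and 8.81, 0.315) and TRIB3 (9.34 and 9.67, 0.295), both known ATF4 targets, were the 2 of 14 genes at least 1.2-fold higher, against 5.48% of all detected genes. As much lower were 0, against 8.45%. ATF4 itself was at 0.125 and DDIT3 (CHOP) at 0.195. ASNS, a further ATF4 target that makes asparagine, was at 0.005. The lowest genes were PSAT1, of serine synthesis, at -0.235 and STC2 at -0.125.

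The other lists held 0 genes past 1.5-fold, against 0.861% of all detected genes lower and 0.395% higher. Ribosome rescue and recycling genes had 13 of 14 measured detected, 9 negative and a median of -0.055, from the stalled-ribosome kinase MAP3K20 (-0.205) to the quality control ligase LTN1 (0.205), with ZNF598 at -0.135 and TCF25 at 0.055. Mitochondrial translation factors had 7 of 7 detected, 5 negative and a median of -0.095. GUF1, a mitochondrial elongation factor, was 1.26-fold lower (-0.335), MTRF1L was at -0.115, MTIF2 at 0.045 and MRRF at 0.115. In the mitochondrial synthetase list only GATB (-0.075, detected through the control array alone) and QRSL1 (0.155), of the amidotransferase that makes glutaminyl-tRNA, had a named probe set, so the cytosolic synthetases could not be set beside their mitochondrial counterparts. Cytosolic ribosomal proteins and their paralogs had 44 of 51 measured detected, a median of -0.005 and 24 negative, from RPS16 (-0.175) and RPS23 (-0.155) to RPL32 (0.155) and RPL17 (0.255). Past 1.2-fold were 0 of the 44, against 8.45% of all detected genes lower and 5.48% higher.

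**Figure D5:**
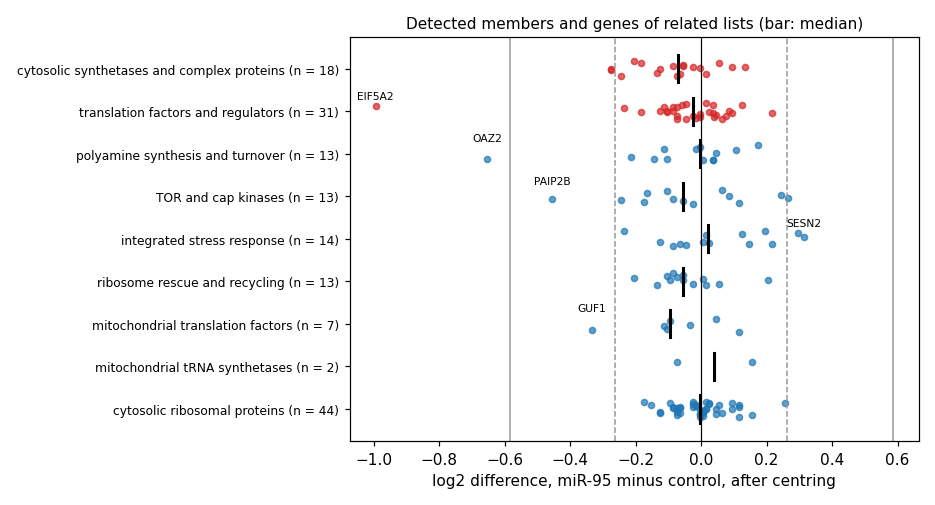
Log2 differences (miR-95 minus control, after centring) of detected synthetases and of the other detected members (red) and of detected genes of the related lists (blue), with a black bar at each median. Dashed and solid vertical lines mark 1.2-fold and 1.5-fold. EIF5A2 (-0.995) and OAZ2 (-0.655) lie beyond 1.5-fold, and every list has a median between -0.095 and 0.04.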

How the data were processed

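RNA of both cultures was read on 1 array each. The authors' deposited values are log2 expression per probe set, with the log scale inferred from their range of 1.79 to 13.84. The submitters' processing notes name Affymetrix Expression Console 1.2. No source used here gives the summarisation, scaling between arrays, filters or genome build. Precision is limited by the number of arrays.

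From these values, probe sets of a gene were averaged, each array was centred on its median over 13864 named genes, and differences were taken as miR-95 minus control with pandas 2.3.3 in Python 3.11.15. A gene was detected when either array was at or above its own median. Genes were counted at 1.5-fold and 1.2-fold, without a test, because each group has 1 array. The steps were tested on simulated data with shifts well past both limits, in bright genes, and with less scatter than on these arrays. That test does not cover calls near 1.2-fold or dim genes. The alternatives were other centrings (none, loess with span 0.4, quantile, all probe sets), detection at the 25th or 75th percentile, on both arrays or without a filter, the brightest probe set, and an offset of 32 on the linear scale. Members, role groups and related lists were chosen with earlier results of these data known. The genes named are EIF5A2, EIF5A, EIF5AL1, DHPS, DOHH, every detected member past 1.2-fold, the extremes of each role group, other members as examples, and in related lists the 2 largest differences each way and those past 1.5-fold. GIGYF2, PAIP2, MTOR, ATF4, DDIT3, ASNS, AMD1 and the neighbours of EIF5A2 were named after their values were seen. By Entrez identifier, all 14088 named probe sets were found in RefSeq's GRCh38.p14 gene table, used for names, gene span and gene order.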

Additional observations from a re-analysis of the deposited data

How the results depend on the processing

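The difference of EIF5A2 lay between -0.995 and -0.952 under all 10 alternatives tried, although the detection settings could not change it. The count of members past 1.5-fold (1 lower, 0 higher) was the same under each. The count of members at least 1.2-fold lower was 3, but 1 with the values as deposited, after loess, after quantile normalization and with the median over all probe sets, because GARS1 and RARS1 lie just past the limit and these centrings moved no member by more than 0.055. The median of EIF5A2, EIF5A and DHPS was -0.51 with detection at the 75th percentile, where EIF5A drops out and the median is the mean of the remaining pair. The sign of a member changed in at most 6 of 51 results (the detected members with DOHH and EIF5AL1) under any one alternative, and none whose main size was above 0.025. The members' median was -0.05 without EIF5A2 and -0.055 over members in a role group, both chosen after seeing the data. No paired analysis was possible because each group has 1 array. Signal over background was not measured here, so its limit on dim members is unknown.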

Other observations

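Differences declined with gene span over all 7081 detected genes (Spearman's rho = -0.238), and over the 49 detected members rho was -0.272. Without EIF5A2 it was -0.294, and over the 18 synthetases and complex proteins it was -0.106. Genes are not independent replicates and all points share the same 2 arrays, so these are descriptions.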
